A study of Mus musculus with 10 samples.

Results

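The genes described here hold epithelial cells together: the cadherins, the claudins, the tight junction proteins Tjp1, Tjp3, Ocln and F11r, the adhesion molecule Epcam, the catenins Ctnna1, Ctnnd1 and Jup, the desmosome genes Dsp, Dsg2 and Dsc2, and the gap junction gene Gja1. They were chosen by name, not by value. Every probe set whose annotation gave exactly 1 gene symbol was taken if that symbol was Cdh or Cldn with a number, Tjp with a digit, or one of the other names above. This gave 77 probe sets of 47 genes on the array type MOE430A and 25 probe sets of 18 genes on MOE430B, out of 22626 and 22511 probe sets other than controls and of 12393 and 9607 genes named by a single symbol. Together they are 102 probe sets of 53 genes, and 12 genes have probe sets on both types.

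The RNA came from mouse embryos at embryonic day 5.5 from matings labelled B6SJLF1×CerlP-GFP, which carry a fluorescent reporter of the anterior visceral endoderm and received no treatment. The anterior distal fragment (Ad) held the fluorescent endoderm with the epiblast beneath it. The posterior proximal fragment (Pp) held proximal visceral endoderm and epiblast from the opposite side, and its upper edge lay at the border with the extraembryonic region. The third kind of sample was the whole embryo, hybridised for normalization per the design text. MOE430A was used for Ad replicates 1 and 2, Pp replicates 1 and 2 and 1 whole embryo, and MOE430B for Ad replicates 3 and 4, Pp replicates 3 and 4 and 1 whole embryo. The RNA was linearly amplified and labelled with biotin. Whether replicates of a group were cut from separate embryos is not said in the labels, so a p-value here reflects the spread among these arrays, which may be technical. Each fragment mixes endoderm and epiblast, and in such bulk RNA fewer cells of a type and less RNA per cell cannot be told apart.

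Classical cadherins are calcium-dependent adhesion receptors whose cytoplasmic tails bind the catenins, which link them to actin. Claudins and occludin form the strands of tight junctions, with the Tjp scaffolds beneath them, while desmosomes anchor keratin filaments through desmoplakin and connexins join neighbouring cells in gap junctions. At this stage the epiblast and the visceral endoderm are both epithelia, and the anterior visceral endoderm moves as cells that keep contact with their neighbours.

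Marker genes followed the labels. The summed signal of 11 anterior visceral endoderm genes was 27868 and 22585 on the Ad arrays of MOE430A, against 9328 and 8630 on the Pp arrays, and 8 of their 14 measured probe sets were higher in Ad by limma. The whole-embryo array carried more RNA of other tissues. Summed signal of 16 decidual stroma genes, which mark the maternal tissue around the embryo, was 46619 there against 11189 to 13109 in the fragments, and that of 14 endothelial genes was 16510 against 10873 to 11761. Array medians ranged from 590.3 to 644.5 (MOE430A) and from 56.8 to 61.0 (MOE430B). Array signals have no counts behind them, and the number of arrays limits the precision.

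Signal below is the deposited value in arbitrary units, and levels of different probe sets are not compared. A log2 difference is a fitted difference of log2(signal + pseudocount), with a pseudocount of 247.4 on MOE430A and 10.5 on MOE430B, after each array was centred on its median. A probe set was measured if its mean log2 value lay above the 40th percentile of its array type, about 464 (MOE430A) or 37.2 (MOE430B) in signal units. A call is a Benjamini-Hochberg adjusted p under 0.05 in limma over all 13575 or 13506 measured probe sets. Every adjusted p below comes from that limma fit.

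Of the junction probe sets, 38 of 77 on MOE430A (24 genes) and 15 of 25 on MOE430B (12 genes) were measured. In all, 31 of the 53 genes were measured on at least 1 array type. The other 22 were Cdh3, Cdh5, Cdh8, Cdh9, Cdh13, Cdh15, Cdh16, Cdh17, Cdh18, Cdh19, Cdh22, Cdh23, Cldn1, Cldn8, Cldn11, Cldn13, Cldn14, Cldn16, Cldn19, Cldn22, Cldn23 and Tjp3. Among the 39 unmeasured probe sets of MOE430A the highest signal on any fragment array was 532, and among the 10 of MOE430B it was 45.9. P-cadherin, Cdh3, lay in this group, at 224 and 243 in Ad, 226 and 209 in Pp and 278 in the whole embryo on MOE430A and at 7.92 and 15.5 in Ad, 14.1 and 15.6 in Pp and 19.1 in the whole embryo on MOE430B.

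**Figure D1:**
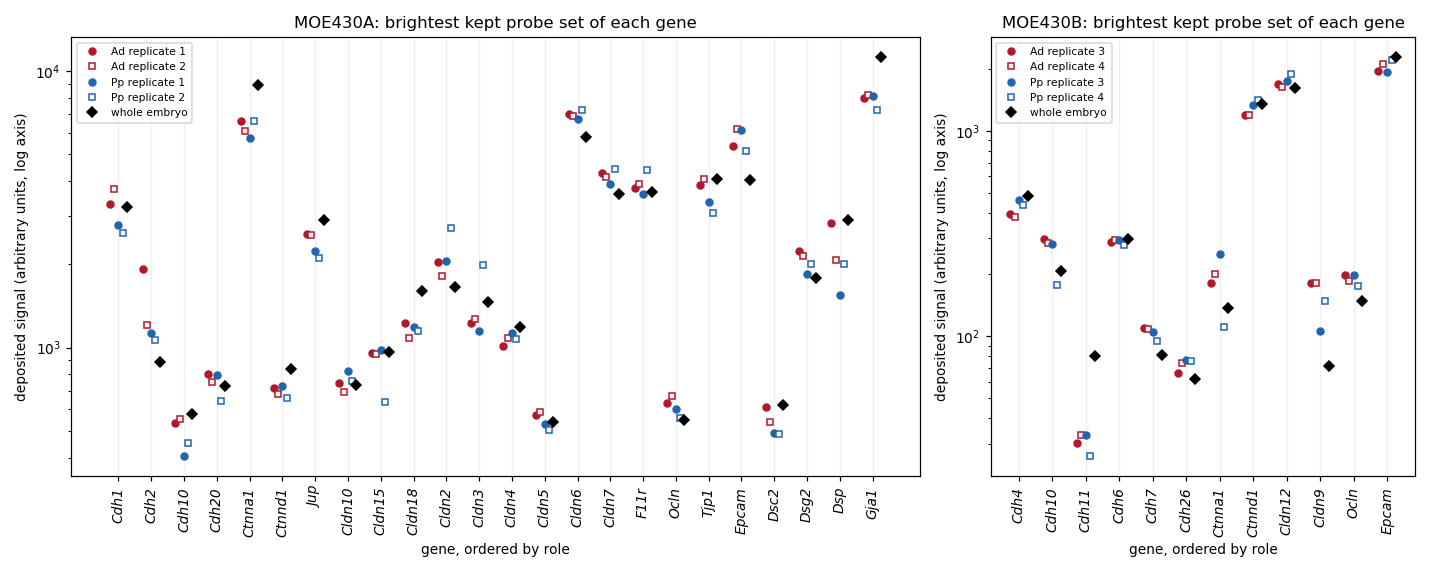
Deposited signal (log axis) of the brightest measured probe set of each junction gene on every array, MOE430A left and MOE430B right, with genes ordered by role. Filled and open symbols are the 2 replicates of each fragment and diamonds are the whole embryo. For most genes the Ad and Pp symbols lie close together, while Gja1 lies higher and Epcam lower in the whole embryo on MOE430A.

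No junction gene separated the Ad from the Pp fragments past the threshold. On MOE430A 0 of 38 junction probe sets were called between Ad and Pp, where 0.169% of all measured probe sets were, and on MOE430B 0 of 15, where 0.111% were. An unadjusted p under 0.05 was reached by 8 of the 38 (11.7% of all probe sets) and by 2 of the 15 (10.4% of all). The 8 were Cdh1, Tjp1, Ctnna1 and Dsp with more signal in Ad, and Cldn10, Cldn2, Cldn3 and Gja1 with less, each by 1 probe set. The 95% interval of the fitted difference lay within 2-fold either way for 36 of the 38 and for 15 of 15. The 2 exceptions were Cldn3 probe sets. The pseudocount shrinks fitted differences where signal is low, so these intervals do not bound the ratio of deposited signals there.

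Log2 differences on MOE430A ran from -0.71 to 0.39 with 19 above and 19 below 0. Their median was -0.01, and that of all measured probe sets -0.03. The median absolute difference was 0.13, against 0.08 for all. On the centred log2 scale both Ad arrays lay above both Pp arrays for 14 probe sets (16.2% of all measured) and below for 12 (29.1% of all). In deposited signal the split was 16 (32.3%) and 5 (12.2%), so the direction of small differences depends on the centring. On MOE430B the differences ran from -0.45 to 0.43 with a median of -0.08 (all probe sets -0.01), and Ad lay above for 1 (19.3%) and below for 6 (23.4%), or for 3 (28.8%) and 5 (14.6%) in deposited signal.

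The count of calls on MOE430A differed with which Pp array was present. With 1 Pp array left, the spread comes from the Ad pair and from limma's pooling over probe sets, and that array is assumed to vary like them, so these counts do not show that Pp differs from Ad. Without Pp replicate 1, 6 junction probe sets passed, where 5.94% of all did: all 4 of Cldn3 and 1 of Cldn2 with less signal in Ad, and Cldn15 with more. Without Pp replicate 2, 3 passed, where 3.71% of all did: both of Dsp and 1 of Dsg2, with more signal in Ad.

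**Figure D2:**
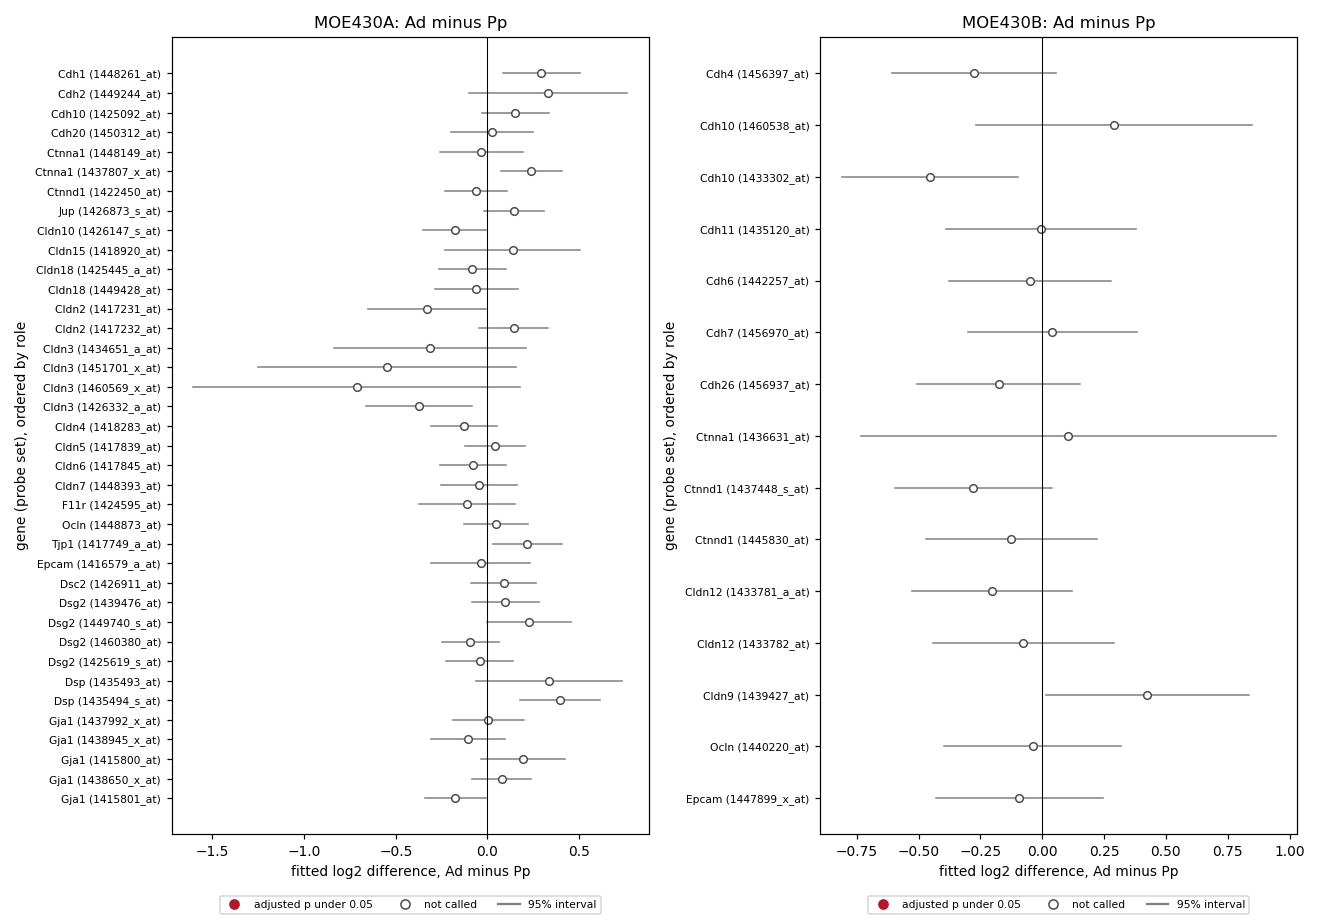
Fitted log2 difference of Ad minus Pp (points) with its 95% interval (lines) for each measured junction probe set, ordered by role, on MOE430A (left) and MOE430B (right). Open points did not pass the adjusted p; all 38 and all 15 are open, and the widest intervals on MOE430A belong to Cldn3.

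E-cadherin, Cdh1, the main cadherin of the epiblast and of most epithelia, was at 3321 and 3749 in Ad, 2777 and 2605 in Pp and 3228 in the whole embryo. Both Ad arrays were above both Pp arrays, with a log2 difference of 0.29 (95% interval 0.08 to 0.50) that was not called (adjusted p = 0.341). N-cadherin, Cdh2, which takes over from E-cadherin when cells leave an epithelium, was at 1921 and 1210.2 in Ad, 1133 and 1068 in Pp and 888 in the whole embryo in its measured probe set. Ad replicate 1 stood above the other 3 fragment arrays, and the log2 difference was 0.33 (95% interval -0.10 to 0.76) (adjusted p = 0.512). The unmeasured Cdh2 probe set was at 532 and 451 in Ad, 369 and 282 in Pp and 238 in the whole embryo, again without overlap. R-cadherin, Cdh4, had a log2 difference of -0.28 on MOE430B.

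Type II cadherins, which share the catenin-binding tail but differ in their adhesive domain, gave no call between Ad and Pp. Cdh20 on MOE430A and Cdh6 and Cdh7 on MOE430B overlapped between Ad and Pp on the centred scale, and in deposited signal Cdh7 was at 109.8 and 108 in Ad and 105 and 94.8 in Pp, without overlap. The 3 measured probe sets of Cdh10 went different ways: the log2 difference was 0.15 on MOE430A and 0.29 and -0.45 on MOE430B. Of the other cadherins, only Cdh26 was measured, with a log2 difference of -0.18.

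No catenin was called between the fragments. Alpha-catenin, Ctnna1, which couples the cadherin complex to actin, was at 6583 and 6065 in Ad, 5756 and 6585 in Pp and 8917 in the whole embryo in its brightest probe set, and Ad and Pp overlapped. A further Ctnna1 probe set, at 6897 and 6487 in Ad, 5476 and 5231 in Pp and 7708 in the whole embryo, had a log2 difference of 0.24 (95% interval 0.07 to 0.41) (adjusted p = 0.338). The probe set on MOE430B, at 181 and 201 in Ad, 250.1 and 111 in Pp and 138 in the whole embryo, had the widest spread of its type. Plakoglobin, Jup, shared by adherens junctions and desmosomes, was at 2580.4 and 2550.2 in Ad, 2246 and 2118 in Pp and 2884 in the whole embryo, a log2 difference of 0.14. p120-catenin, Ctnnd1, which keeps cadherins at the cell surface, was at 713 and 681 in Ad, 725 and 660.3 in Pp and 834 in the whole embryo on MOE430A and at 1196 and 1189 in Ad, 1341 and 1409 in Pp and 1348 in the whole embryo on MOE430B. Its 3 measured probe sets had log2 differences of -0.06 on MOE430A and -0.28 and -0.12 on MOE430B. With no centring all 4 catenin probe sets of MOE430A were positive, while the median of all measured probe sets moved from -0.03 to 0.04.

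Of 14 claudin probe sets on MOE430A (9 genes), 3 had a positive log2 difference (41.1% of all measured probe sets did) and 11 a negative one, with a median of -0.10 against -0.03 for all. With no centring 9 of 14 were negative and the median was -0.04, against 0.04 for all. Of the 11, 4 belong to Cldn3, described below, in which Pp replicate 2 stands apart. Cldn6, a claudin of early embryonic epithelia, was at 7000.2 and 6865 in Ad, 6720.3 and 7242 in Pp and 5797 in the whole embryo, and Ad and Pp differed by -0.08 (95% interval -0.26 to 0.10) on the log2 scale. Cldn7 was at 4287 and 4149 in Ad, 3899 and 4418 in Pp and 3600.4 in the whole embryo, with overlapping fragments. Cldn4 was at 1010.1 and 1087 in Ad, 1133 and 1071 in Pp and 1191 in the whole embryo, a log2 difference of -0.13 (adjusted p = 0.535). The pore-forming claudin Cldn2 gave opposite signs in its 2 probe sets, -0.33 and 0.14. On MOE430B Cldn9 was at 182 and 182 in Ad, 106 and 148 in Pp and 71.4 in the whole embryo, a log2 difference of 0.43 (95% interval 0.02 to 0.83) (adjusted p = 0.476). The unmeasured Cldn9 probe set of MOE430A went the other way, at 434 and 412 in Ad, 440.4 and 488 in Pp and 342 in the whole embryo. Cldn12 had differences on MOE430B of -0.20 and -0.08.

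Tight junction membrane proteins and their scaffold showed small differences. The scaffold Tjp1 was at 3872 and 4082 in Ad, 3375 and 3066 in Pp and 4079 in the whole embryo, both Ad arrays above both Pp arrays, with a log2 difference of 0.22 (95% interval 0.03 to 0.41) (adjusted p = 0.389). F11r, the junctional adhesion molecule A, was at 3794 and 3924 in Ad, 3603 and 4399 in Pp and 3658 in the whole embryo, and its fragments overlapped. Occludin, Ocln, was at 629.8 and 667 in Ad, 602 and 555 in Pp and 545 in the whole embryo on MOE430A, a log2 difference of 0.05, and at 199 and 186 in Ad, 199 and 176 in Pp and 148 in the whole embryo on MOE430B. Epcam, a surface glycoprotein of epithelia, was at 5383 and 6164 in Ad, 6144 and 5155 in Pp and 4038 in the whole embryo on MOE430A, where Ad and Pp interleaved.

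Of 7 desmosome probe sets (3 genes) 5 were positive, where 41.1% of all measured probe sets were. With no centring 6 were positive, while the median of all measured probe sets moved from -0.03 to 0.04. Parietal endoderm genes, largely of the basement membrane, had more signal in Ad as well: their summed signal was 27698 and 26076 in Ad against 17882 and 21075 in Pp. Over the brightest probe set of each of their 7 measured genes the median log2 difference was 0.41. Of their 10 measured probe sets 0 were called. Their part in the desmosome values was not tested. The nearest to a call was desmoplakin, Dsp, which ties desmosomes to keratin. Its probe set 1435494_s_at was at 1908 and 1717 in Ad, 1164 and 1332 in Pp and 2669 in the whole embryo, a log2 difference of 0.39 (95% interval 0.18 to 0.61) (adjusted p = 0.250). The brighter Dsp probe set, at 2819.6 and 2083 in Ad, 1554 and 2009 in Pp and 2896 in the whole embryo, overlapped on the centred scale, with a difference of 0.34 (adjusted p = 0.475). The desmosomal cadherin Dsg2 was at 2233 and 2138 in Ad, 1839.7 and 2002 in Pp and 1786 in the whole embryo in its brightest probe set, and its 4 measured probe sets ran from -0.09 to 0.23. Dsc2, the other desmosomal cadherin, was at 608 and 538 in Ad, 491 and 485 in Pp and 619 in the whole embryo, a difference of 0.09.

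The connexin Gja1, the main gap junction protein of early embryonic cells, had 5 measured probe sets with log2 differences of -0.18 to 0.20, 3 above and 2 below 0.

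Cldn3, a sealing claudin, differed between the 2 Pp arrays, and 3 of its probe sets had the widest intervals among the 38 of MOE430A. Probe set 1460569_x_at was at 331 and 373 in Ad, 370.4 and 1171 in Pp and 635 in the whole embryo, and 1451701_x_at at 484 and 530.3 in Ad, 512 and 1204 in Pp and 718 in the whole embryo. The brightest, 1434651_a_at, was at 1227 and 1272 in Ad, 1153 and 1995 in Pp and 1468 in the whole embryo, and 1426332_a_at at 384 and 416 in Ad, 471 and 645 in Pp and 484 in the whole embryo. All 4 were highest in Pp replicate 2, and in the first 3 Pp replicate 1 was close to the Ad arrays. In 1460569_x_at both Ad arrays and Pp replicate 1 lay below the filter signal. It was thus measured only through Pp replicate 2 and the whole embryo, and its difference supports nothing by itself. In 1426332_a_at both Ad arrays lay below the filter signal. The log2 differences were -0.71, -0.55, -0.31 and -0.38, with adjusted p of 0.493, 0.507, 0.594 and 0.356. Without Pp replicate 1 they were -1.32, -1.02, -0.66 and -0.54. Pp was then the single array Pp replicate 2, whose own spread is not measured, so these values restate that it stands apart. These probe sets measure 1 gene, and those ending in x_at hold probes that can also match other transcripts.

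Genes of the extraembryonic ectoderm, the trophoblast tissue above the Pp fragment, were also highest in Pp replicate 2 among the fragments. The brightest probe set was so for 8 of the 12 list genes, and the summed signal was 17700 there against 11304 to 11725 on the other fragment arrays and 20762 in the whole embryo. Elf5, a transcription factor of that tissue, was at 340.2 and 296 in Ad, 601 and 2432 in Pp and 2194 in the whole embryo, and Bmp4 at 744 and 605 in Ad, 573 and 2359 in Pp and 1595 in the whole embryo. The connexin Gjb5, a trophoblast gene, was at 491 and 466 in Ad, 454 and 1593 in Pp and 2639 in the whole embryo. In the visceral endoderm list 7 of 14 genes were also highest in Pp replicate 2. Its sum was 91918 there and 76406 to 95460 on the other fragment arrays. The share of all probe sets highest in that array was not counted. The part of either tissue in the Cldn3 values was not tested. Cldn4, the neighbouring gene, was highest among the fragments in Pp replicate 1, and Cldn15 was lowest in Pp replicate 2, at 959 and 952 in Ad and 983 and 636 in Pp.

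**Figure D3:**
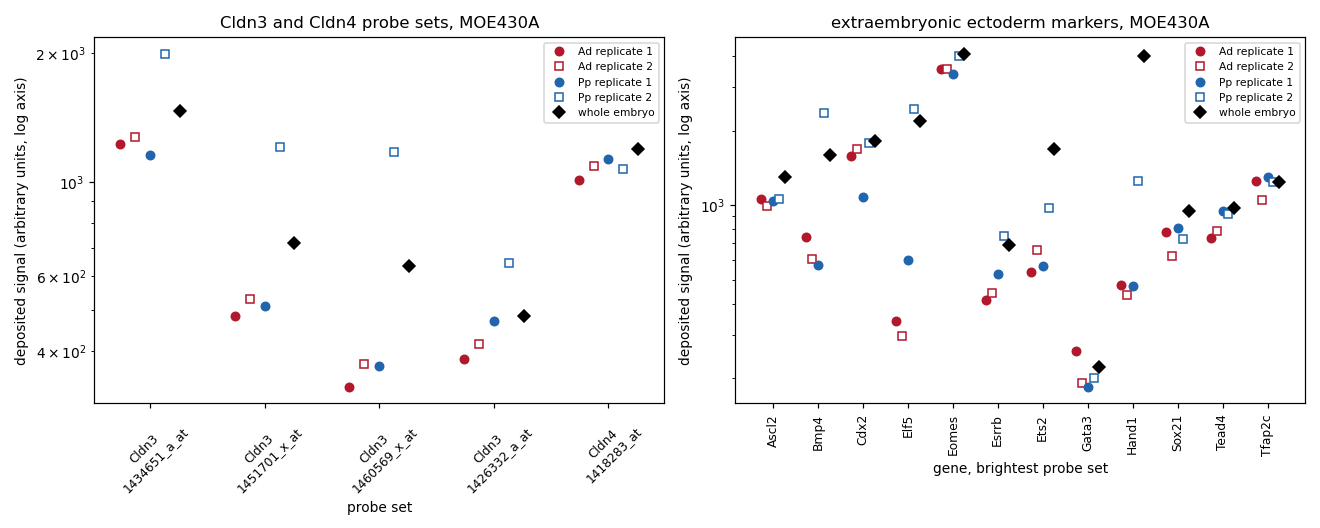
Deposited signal (log axis) of the Cldn3 and Cldn4 probe sets (left) and of extraembryonic ectoderm markers, brightest probe set of each (right), on the 5 MOE430A arrays. The open Pp square (replicate 2) stands above the other fragments in all 4 Cldn3 probe sets and in Elf5, Bmp4 and Hand1, and within the other fragments in Cldn4.

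Set against the whole embryo, the fragments were called lower in Gja1 and in a single Dsp probe set on MOE430A. Epcam was called higher in the fragments on MOE430A, but only with median centring. On that type 7 of 38 junction probe sets were called (18.4%), where 9.78% of all measured probe sets were: 2 higher in the fragments (4.60% of all) and 5 lower (5.19% of all). Of the 5 lower, 4 were probe sets of the single gene Gja1, so they are not separate genes. Of the 2 higher, that of Cldn18 was measured only through the fragments. An unadjusted p under 0.05 was reached by 16 of 38 (27.3% of all). On MOE430B 1 of 15 was called, lower in the fragments, where 2.21% of all were called and 1.81% were lower, and 2 had an unadjusted p under 0.05 (16.4% of all). Each comparison has 1 whole-embryo array, whose spread was taken to be that of the fragments.

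With no centring, quantile normalization or cyclic loess, 0 junction probe sets were called higher and 8, 5 and 6 lower, so the 2 calls towards the fragments were not made under these scalings. Over all 77 probe sets, the whole embryo lay above every fragment for 25 (32.5%, against 35.3% of all probe sets) and below for 18 (23.4%, against 21.3%). On MOE430B these were 7 of 25 (28.0%, against 21.9%) and 11 (44.0%, against 25.3%). These counts and shares include unmeasured probe sets. Those of Cdh13, Cdh18, Cdh19 and Cldn22 and a probe set each of Cdh7 and Cdh8, all unmeasured, are among the 11. The 7 calls were all lost without Ad replicate 1 (adjusted p 0.0644 to 0.155) and without Ad replicate 2 (0.0635 to 0.182). They stood among 15 without either Pp array, where 22.8% and 25.7% of all were called.

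**Figure D4:**
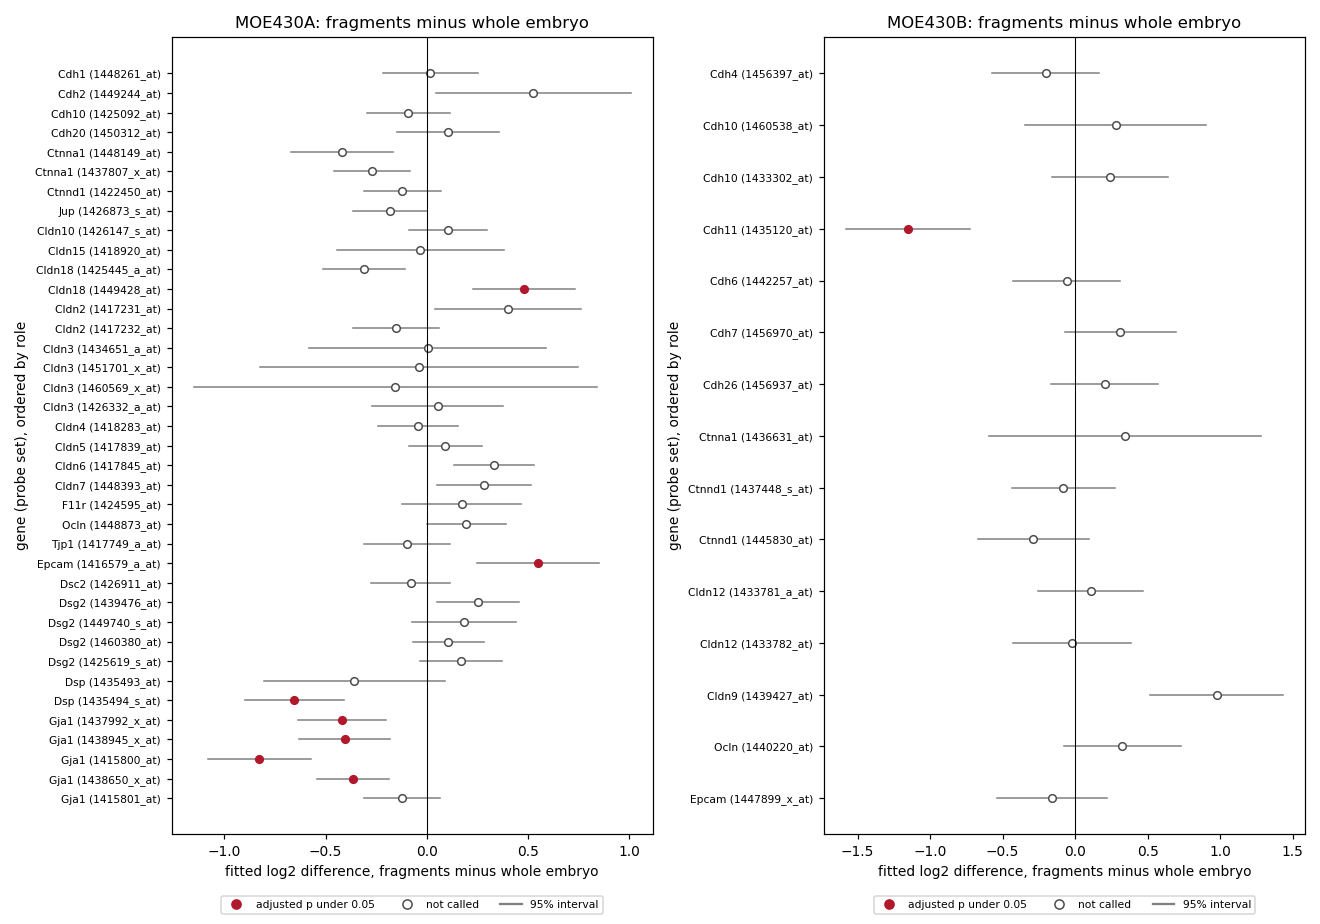
Fitted log2 difference of the fragments, averaged over Ad and Pp, from the whole embryo (points) with 95% intervals (lines) for each measured junction probe set, by role, on MOE430A (left) and MOE430B (right). Filled red points passed the adjusted p: 4 Gja1 and 1 Dsp probe sets below 0 and Epcam and 1 Cldn18 probe set above 0 on MOE430A, and Cdh11 below 0 on MOE430B.

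Gja1 fell in 4 of 5 measured probe sets. The probe set 1415800_at was at 3795 and 3983 in Ad, 2967 and 3443 in Pp and 6832 in the whole embryo, 1.77-fold lower in the fragments, a log2 difference of -0.83 (95% interval -1.08 to -0.57) (adjusted p = 0.010). The brightest, 1437992_x_at, was at 7998 and 8196 in Ad, 8147 and 7243 in Pp and 11239 in the whole embryo, 1.34-fold lower (adjusted p = 0.0422). The other called probe sets were 1.32-fold and 1.29-fold lower (adjusted p = 0.0489 and 0.0362). In all 4 the whole embryo was above every fragment. The dim probe set 1415801_at had the same sign without a call, at 482 and 513 in Ad, 562 and 547 in Pp and 641 in the whole embryo (-0.12, adjusted p = 0.353), and the unmeasured 1438973_x_at was at 324 and 318 in Ad, 294 and 363 in Pp and 393 in the whole embryo. The probe set 1415800_at kept its call under every setting with all arrays, and the calls of the x_at probe sets ended in some (adjusted p 0.0528 to 0.0711).

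Dsp fell in 1 of 2 measured probe sets. In 1435494_s_at, whose values are given above, the fragments were 1.57-fold lower, a log2 difference of -0.65 (95% interval -0.90 to -0.41) (adjusted p = 0.0176), and every fragment lay below the whole embryo. In 1435493_at the difference was -0.36 (adjusted p = 0.265), with Ad replicate 1 near the whole embryo. The other desmosome members were not called: Dsc2 was at -0.08 and the 4 Dsg2 probe sets lay between 0.11 and 0.26.

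Epcam was 1.47-fold higher in the fragments on MOE430A, a log2 difference of 0.55 (95% interval 0.25 to 0.85) (adjusted p = 0.0478), and all 4 fragments lay above the whole embryo. The call ended under all 3 other scalings (no centring, quantile normalization, cyclic loess), both other pseudocounts and no filter (adjusted p 0.0507 to 0.0764). On MOE430B another Epcam probe set went the other way without a call, at 1956 and 2124 in Ad, 1922 and 2214 in Pp and 2282 in the whole embryo (-0.16, adjusted p = 0.663).

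Among the claudins, 1 of 14 probe sets was called. Cldn18, known from lung and stomach epithelium, was at 679.8 and 577 in Ad, 578 and 671 in Pp and 413 in the whole embryo in probe set 1449428_at (0.48, adjusted p = 0.0436). The whole-embryo value lies below the filter signal, so no fold is given. The probe set was thus measured only through the fragments, and its call supports nothing by itself. That call ended with no centring, quantile normalization, cyclic loess, the larger pseudocount and no filter (adjusted p 0.0513 to 0.0672). The other Cldn18 probe set had the opposite sign, at 1228 and 1088 in Ad, 1189 and 1149.7 in Pp and 1601 in the whole embryo (-0.31, adjusted p = 0.0747). With no centring it was called lower in the fragments by limma (-0.39, adjusted p = 0.0456). Cldn6 and Cldn7, whose values are given above, were above the whole embryo on all 4 fragments without a call (0.33 and 0.28, adjusted p = 0.0602 and 0.122). Cldn9 on MOE430B was above it on all 4 as well, with a difference of 0.98 (95% interval 0.52 to 1.43) (adjusted p = 0.0615), and passed with the larger pseudocount, the filter at the 60th percentile and an intensity trend (adjusted p 0.0395 to 0.0485).

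Cadherins and catenins gave 1 call. Cdh1 lay near the whole embryo, with a log2 difference of 0.02 (95% interval -0.22 to 0.25) (adjusted p = 0.919), and turned negative with no centring and under cyclic loess. Cdh2 was above the whole embryo on all 4 fragments without a call (0.53, adjusted p = 0.156). The brightest Ctnna1 probe set was below it on all 4 (-0.42 (95% interval -0.67 to -0.17), adjusted p = 0.0596) and passed with no centring, quantile normalization, cyclic loess and the filter at the 60th percentile (adjusted p 0.035 to 0.048). All 4 catenin probe sets of MOE430A were negative, Jup at -0.18 and Ctnnd1 at -0.12, where 60.8% of all measured probe sets were positive. The Ctnna1 probe set of MOE430B was positive (0.34, adjusted p = 0.714).

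Cdh11, a type II cadherin of mesenchymal cells, was called lower in the fragments on MOE430B, at 30.1 and 32.9 in Ad, 33.2 and 26.0 in Pp and 79.9 in the whole embryo (-1.15, adjusted p = 0.0296). The fragments lay below the filter signal and the probe set was measured only through the whole-embryo array, so the call supports nothing by itself. Leaving out Ad replicate 3 or 4 ended it (adjusted p = 0.149 and 0.16), and so did dropping the filter (0.0801). The Cdh11 probe set of MOE430A was unmeasured, at 117 and 148 in Ad, 110.2 and 120.1 in Pp and 699 in the whole embryo. Its fragments too lay below the filter signal, so no difference is given.

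VE-cadherin, Cdh5, the adherens junction cadherin of endothelium and the neighbour of Cdh11 on its chromosome, was likewise unmeasured. Its probe set 1433956_at was at 259.9 and 308 in Ad, 262 and 212 in Pp and 1356 in the whole embryo, with every fragment below the filter signal. The other, 1422047_at, was flat at 299.8 and 319.6 in Ad, 328 and 309.9 in Pp and 325 in the whole embryo. Of 14 endothelial genes 13 and of 16 decidual stroma genes 13 had their brightest probe set highest in the whole embryo, and parietal endoderm genes did so in 10 of 11. Extraembryonic ectoderm genes did so in 7 of 12. Of all probe sets of MOE430A, 35.3% had the whole embryo above every fragment. The part of these tissues in the whole-embryo values of Gja1, Dsp, Cdh11 and Cdh5 was not tested.

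**Figure D5:**
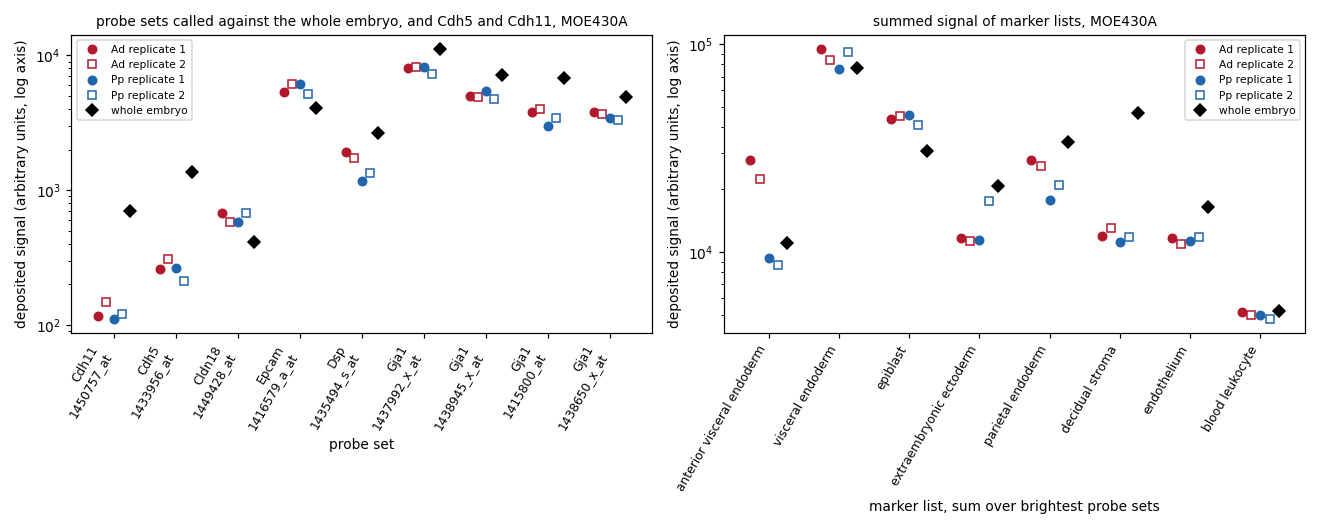
Deposited signal (log axis) on the 5 MOE430A arrays: the junction probe sets called against the whole embryo with Cdh5 and Cdh11 (left), and the summed signal of 8 marker lists over the brightest probe set of each gene (right). The whole-embryo diamond lies above the fragments for Gja1, Dsp, Cdh5 and Cdh11. It also does so for the decidual stroma, endothelium, parietal endoderm and extraembryonic ectoderm lists and, narrowly, for the blood and leukocyte list. It lies below the fragments for Epcam, Cldn18 and the epiblast list.

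Promoter sequence is shown for the genes called on MOE430A in the whole-embryo comparison and for the neighbours Cldn3 and Cldn4, so that it can be read beside their values. Each is the 250 bases before a gene's start, 5′ to 3′ on the gene's strand, from RefSeq on GRCm38.p6. The positions are chr10:56377050-56377299 (plus strand) for Gja1, chr13:38151044-38151293 (plus) for Dsp, chr17:87635729-87635978 (plus) for Epcam, chr9:99710064-99710313 and chr9:99717268-99717517 (both minus) for the 2 starts of Cldn18, chr5:134985964-134986213 (plus) for Cldn3 and chr5:134946935-134947184 (minus) for Cldn4. Capitals mark 3 motifs searched on both strands: CACCTG, the E-box bound by Snail and Zeb repressors, GCCNNNGGC, an AP-2 motif, and TGANTCA, an AP-1 motif chosen with these sequences in view.
Gja1: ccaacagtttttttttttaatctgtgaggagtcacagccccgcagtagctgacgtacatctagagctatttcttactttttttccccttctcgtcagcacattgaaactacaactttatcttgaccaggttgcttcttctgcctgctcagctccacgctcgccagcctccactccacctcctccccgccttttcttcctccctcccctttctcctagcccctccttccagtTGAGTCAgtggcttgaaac
Dsp: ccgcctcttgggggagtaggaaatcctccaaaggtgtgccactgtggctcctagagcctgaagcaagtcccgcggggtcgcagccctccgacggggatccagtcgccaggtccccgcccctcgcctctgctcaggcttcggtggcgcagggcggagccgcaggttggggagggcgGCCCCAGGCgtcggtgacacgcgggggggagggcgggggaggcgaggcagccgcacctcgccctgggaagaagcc
Epcam: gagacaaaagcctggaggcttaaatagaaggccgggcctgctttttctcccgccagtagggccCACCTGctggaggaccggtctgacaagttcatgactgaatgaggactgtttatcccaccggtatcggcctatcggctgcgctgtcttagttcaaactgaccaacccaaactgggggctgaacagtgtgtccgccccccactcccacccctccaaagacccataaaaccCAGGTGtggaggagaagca
Cldn18 start 1: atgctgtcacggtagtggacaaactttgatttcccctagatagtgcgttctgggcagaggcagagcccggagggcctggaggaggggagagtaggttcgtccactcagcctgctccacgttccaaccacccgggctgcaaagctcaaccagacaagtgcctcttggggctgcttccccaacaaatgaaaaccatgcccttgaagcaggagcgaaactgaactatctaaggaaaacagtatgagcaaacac
Cldn18 start 2: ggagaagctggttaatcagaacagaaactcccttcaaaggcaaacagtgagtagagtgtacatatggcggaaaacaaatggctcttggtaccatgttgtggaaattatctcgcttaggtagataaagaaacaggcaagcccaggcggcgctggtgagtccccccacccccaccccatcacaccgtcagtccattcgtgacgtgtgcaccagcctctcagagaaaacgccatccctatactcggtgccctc
Cldn3: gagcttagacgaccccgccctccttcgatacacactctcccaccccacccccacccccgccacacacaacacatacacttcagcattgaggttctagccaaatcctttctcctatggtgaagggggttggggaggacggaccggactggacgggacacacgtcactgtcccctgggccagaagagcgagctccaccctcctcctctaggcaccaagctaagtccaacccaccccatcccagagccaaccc
Cldn4: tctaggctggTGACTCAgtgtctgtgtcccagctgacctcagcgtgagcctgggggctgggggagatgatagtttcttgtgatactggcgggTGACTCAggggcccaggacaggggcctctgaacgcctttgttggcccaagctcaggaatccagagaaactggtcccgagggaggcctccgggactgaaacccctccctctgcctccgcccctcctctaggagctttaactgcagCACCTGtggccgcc

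The Epcam window held 2 CACCTG matches, 1 on each strand, the Dsp window 1 GCCNNNGGC, the Gja1 window 1 TGANTCA, and the Cldn4 window 1 CACCTG and 2 TGANTCA, while those of Cldn3 and Cldn18 held none of the 3. Of all 32851 windows 17.2% held CACCTG, 13.7% GCCNNNGGC and 6.7% TGANTCA. Among the 49 windows found for 36 of the 53 junction genes the counts were 11, 8 and 4. A match is a description of the letters, not of a bound site. Cdh1, Cdh5, Cdh11 and Cldn9 have no window in the table used.

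The wider junction machinery gave 0 limma calls between Ad and Pp in each of the 7 lists of partner genes on both array types. On MOE430A the desmosome partner list had the largest median difference, 0.30 over the brightest probe set of each of its 9 measured genes, beside the parietal endoderm difference given above. Keratin 8, Krt8, which forms the filaments desmosomes hold, was at 7122 and 6791 in Ad, 3793 and 5272 in Pp and 6857 in the whole embryo, a log2 difference of 0.54 (adjusted p = 0.332), and plakophilin 2, Pkp2, had one of 0.30. The medians of the other 6 lists, also over the brightest probe set of each gene, lay between -0.06 and 0.04. The median of all measured probe sets, which counts every probe set of a gene, was -0.03.

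Against the whole embryo 4 of the 7 partner lists held calls both ways on MOE430A, 2 held 1 higher call each and 1 held none. The shares to read them against are those of all measured probe sets there, 4.60% higher and 5.19% lower. Of 33 measured adherens junction probe sets (17 genes) 2 rose in the fragments and 4 fell. The 2 were Ajuba (0.55) and a probe set of the apical constriction gene Shroom3 (0.47), whose other measured probe sets were uncalled, at 0.14, 0.16 and 0.17. Probe sets of beta-catenin, Ctnnb1 (-0.35), and of the actin linkers Lima1 (-0.56), vinculin, Vcl (-0.53), and zyxin, Zyx (-0.53), fell. Other measured probe sets of these genes were uncalled, Ctnnb1 at -0.33, Lima1 at 0.03 and -0.10 and Zyx at -0.11. Of 12 tight junction probe sets the tricellular protein gene Marveld2 was called higher (0.49) and Tjap1 (-0.63) and the endothelial adhesion gene Esam (-1.01) fell. The whole-embryo signal of Marveld2, 372, lay below the filter signal. Marveld2 was thus measured only through the fragments, and its call supports nothing by itself. Of 12 desmosome probe sets a Pkp2 probe set rose (0.37) and the keratins Krt19 (-1.75) and Krt7 (-0.68) fell. The other measured Pkp2 probe set was uncalled, at 0.11.

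Apical polarity genes, 37 measured probe sets of 24 genes, were called about as often as all probe sets (4.60% higher, 5.19% lower). Of these probe sets 2 rose, of Crb3 (0.74) and Dlg3 (0.46), and 2 fell, of Msn (-0.40) and the atypical protein kinase C gene Prkci (-0.66). Other measured probe sets were uncalled, with Crb3 at 0.20 and 0.19 and Prkci at 0.16, the opposite sign. Among 19 probe sets of junction regulators the epithelial splicing factor Esrp1 rose (0.48), and among 16 of proteases and trafficking genes the protease inhibitor Spint2 rose (0.36). Of the other connexins and pannexins 0 of 4 were called on MOE430A. On MOE430B Magi3 (-1.65), among 11 measured tight junction probe sets, fell. Both measured probe sets of the single gene Amotl1 (-1.64 and -1.70), among 9 of apical polarity, fell too. These were the calls of the 7 lists there, where 1.81% of all measured probe sets were called lower.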

How the data were processed

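Signal intensities are MAS5 values deposited by the authors, per the submitters' processing notes. Their version, scaling target and floor were not given in the sources used here, and 5.69 to 6.13% of values on each MOE430B array were exactly 1. Names came from the platform annotation, and symbols matched RefSeq (GRCm38.p6) for 77 and 25 junction probe sets. The array types were fitted separately (limma 3.58.1, R 4.3.3). The pseudocount was the 20th percentile of all values and the filter the 40th percentile of mean log2 values. Arrays were centred on their medians, and 3 kinds of sample were fitted with lmFit and eBayes (2 residual degrees of freedom, two-sided). The code was tested on simulated data. The members, lists and motifs were chosen with earlier results of these data known. Values are given for called probe sets, those without Ad and Pp overlap and a log2 difference of at least 0.5, and the brightest probe set of 20 fixed genes. Of each partner list, called probe sets are named, at most 4 each way, and otherwise up to 3 with the largest differences. Further probe sets were named after their values were seen. Alternatives were other scalings, pseudocounts, filters, an intensity trend, the replicate block, Ad and Pp arrays alone, and leaving out each array.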

Additional observations from a re-analysis of the deposited data

Results flagged for a closer look

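In 6 of 53 measured junction probe sets 1 fragment array stood apart from the other 3: its gap to the nearest, divided by the range of the 4 fragments, was above Dixon's 95% critical value for 4 samples. Chance gives this in about 1 group in 20. The share of all measured probe sets past this value was not counted, so the 6 cannot be read as particular to junction genes. In 4 of the 6 the array was Pp replicate 2. Cldn3 was high there in probe sets 1460569_x_at (ratio 0.95), 1451701_x_at (0.935) and 1434651_a_at (0.859), and Cldn15 was low there (0.91), at 636 against 952 to 983. Of these, 1460569_x_at was measured only through Pp replicate 2 and the whole embryo. Cdh2 was high in Ad replicate 1 (0.834), at 1921 against 1068 to 1210.2. On MOE430B Cdh10 1460538_at was low in Pp replicate 4 (0.865), at 178 against 281 to 297.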

How the results depend on the processing

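Over 56 named differences and their alternatives, 648 of 732 values kept direction and side of the threshold, 35 lost a call, 18 gained one and 31 changed sign. Junction calls of Ad against Pp stayed at 0 on MOE430A and MOE430B under every setting with all arrays, the replicate block included (0 on each type, where it called 0.177% and 0.215% of all probe sets). Same-numbered deviations correlated at -0.242 on MOE430A and -0.0392 on MOE430B, so the numbers were not taken to pair the samples. With the replicate block crossed, an alternative added after seeing the data, 0 junction probe sets and 0.346% of all were called on MOE430A. Leaving out 1 array gave 0 to 6 calls on MOE430A and 0 to 0 on MOE430B.

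Against the whole embryo, the 7 calls of MOE430A became 3 with no pseudocount, 5 to 8 under the other settings with all arrays and 0 to 15 when 1 array was left out. The 1 call of MOE430B became 0 with no pseudocount, 2 with the larger pseudocount, 0 with no filter and 2 with an intensity trend, and 0 to 2 when 1 array was left out. The causes were not tested.

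With all arrays, signs changed as follows. With no centring Ad minus Pp became 0.0067 for Cldn18 1449428_at, 0.0216 for Cldn7, 0.036 for Ctnna1 1448149_at, 0.0075 for Ctnnd1 1422450_at and 0.0321 for Epcam on MOE430A, and 0.0712 for Cdh11 and 0.0372 for Ocln on MOE430B. Cdh11 there became 0.0341 under cyclic loess and 0.0127 with no filter, and Gja1 1437992_x_at became -0.0079 with no pseudocount. Cdh1 against the whole embryo became -0.0615 with no centring, -0.042 under cyclic loess, and with the 60th percentile as the filter -0.0047.

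Leaving out 1 array turned the sign of Ad minus Pp in Epcam (-0.151 to 0.0782), Cldn18 1449428_at (-0.145 to 0.0220), Ctnna1 1448149_at (-0.132 to 0.0677), Gja1 1437992_x_at (-0.0703 to 0.0804), Cldn7 (-0.139 to 0.0451) and F11r (-0.254 to 0.0310) on MOE430A. On MOE430B it did so in Cdh11 (-0.16 to 0.15), Ocln (-0.153 to 0.0750) and Ctnna1 1436631_at (-0.48 to 0.69). Against the whole embryo it did so in Cdh1 (-0.0257 to 0.0649), Cldn3 1451701_x_at (-0.27 to 0.20) and Cldn3 1460569_x_at (-0.19 to 0.15). With 2 arrays a fragment, and array signals without counts, small differences cannot be resolved.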
